A study of Mus musculus with 12 samples.

Results

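A set of 1159 regions carried H3K4me3 counts in every library of that mark and almost no H3K27ac counts, in endothelial cells isolated from mouse lung. They were chosen by their raw counts, out of 1192075 regions in the deposited table. The rule asked for 5 or more counts in each of the 4 H3K4me3 libraries, fewer than 8 counts summed over the 4 H3K27ac libraries, 5 or more counts in fewer than 3 of the 4 H3K23ac libraries, and a 0 in at least 1 of the 12 libraries. The levels of the 3 marks that follow from this rule are therefore given as a description, with no test. The rule asked the same H3K4me3 count of both genotypes, and H3K4me3 was tested for CSE-KO against WT. The H3K27ac limit was set on raw counts, and of the members' 5487 H3K27ac counts 940 and 945 came from the WT libraries and 2643 and 959 from the CSE-KO libraries, so it weighed more on CSE-KO, through its deep replicate 1.

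The 12 libraries were made by ACT-seq, in which the Tn5 transposase is carried by Protein A to an antibody and cuts sequencing adaptors into chromatin that holds the mark. WT cells are labelled Cre-negative and CSE-KO cells Cre-positive, with 2 libraries for each genotype and mark. CSE is cystathionine gamma-lyase, the enzyme of the Cth gene that makes cysteine from cystathionine. The labels do not give the promoter that drives Cre, the age of the mice, or whether replicates came from separate animals, and Cre and the loss of CSE cannot be told apart. P-values thus measure the spread between libraries, which may be technical. Regions are named only by a list number and a running number, so no gene, position or sequence can be given for a member, and neither the loss of Cth nor endothelial marker genes were analysed here.

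H3K4me3 is written by the SET1 and MLL methyltransferase complexes and is best known from the start sites of genes, above all at CpG-rich promoters. H3K27ac is written by the acetyltransferases p300 and CBP, and promoters that are being used usually carry both marks. Promoters with H3K4me3 and little H3K27ac are also known, among them the bivalent promoters of silent developmental genes, where the same lysine is methylated by Polycomb instead. That methylation was not measured in these libraries. H3K23ac is an acetyl mark written by KAT6 enzymes, among others.

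Of all regions, 9619 (0.807%) reached 5 counts in each of the 4 H3K4me3 libraries. Among these, 1266 (13.2%) had fewer than 8 H3K27ac counts in all. The limit on H3K23ac removed 103 of them and the demand for a 0 removed 4, which left the 1159 members, or 12% of the regions with H3K4me3 counts. The other 8353 regions, with 8 or more H3K27ac counts, serve below as the comparison and are called the acetylated H3K4me3 regions. The name stands for this limit alone and does not mean that each region was enriched for H3K27ac. A sum of 8 was also the median of a wider set of regions given below.

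Depth set what little H3K27ac could mean. The H3K4me3 libraries held 396441 to 563755 counts each and 1958470 together, whereas the H3K27ac libraries held 7990417 together, of which 53.1% lay in CSE-KO replicate 1. The H3K23ac libraries held 6793818. Levels are given as counts per 1000000 counts of the library (CPM), and 1 count was worth 1.77 to 2.52 CPM in the H3K4me3 libraries but only 0.236 to 0.901 CPM in the H3K27ac libraries. A shortage of H3K27ac counts at the members was thus seen with more sequencing than their H3K4me3.

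The H3K27ac counts of the members ran from 0 to 7 in sum, with a median of 5. No count at all was found at 22 members, which allows up to 0.375 CPM (3 counts in the pooled libraries, counting error only). At the upper end, 248 members had 6 counts and 232 had 7. The members form the lower tail of a continuous range, not a separate group: over all 9619 regions with H3K4me3 the median was 20 H3K27ac counts and the lower quartile 11. Among all regions of the H3K4me3 and H3K23ac lists that had a count in an H3K4me3 library, the median was 8 and the mean 12.7, against a mean of 4.73 in the members.

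**Figure D1:**
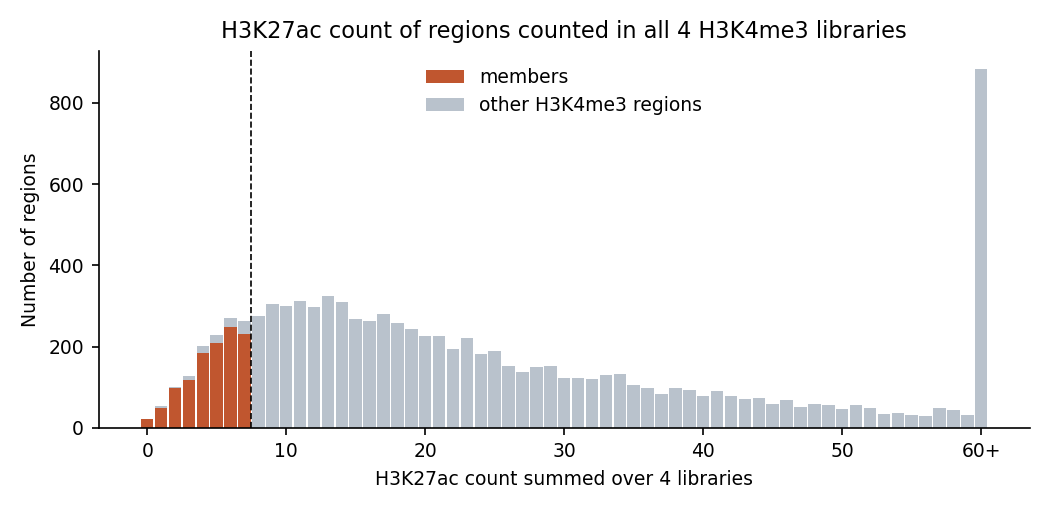
Number of regions (vertical axis) by H3K27ac count summed over 4 libraries (horizontal axis, the last bar holds 60 or more), for the 9619 regions with 5 or more counts in each H3K4me3 library. The members (orange) fill most of the bars left of the dashed limit, and the count of regions runs through the limit without a gap.

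Per library, the mean H3K27ac level of a member was 0.6 CPM in WT replicate 1, 0.734 CPM in WT replicate 2, 0.538 CPM in CSE-KO replicate 1 and 0.643 CPM in CSE-KO replicate 2. The 4 libraries were alike, and their genotypes overlapped. In the acetylated H3K4me3 regions the same 4 libraries had means of 3.73, 4.68, 3.97 and 3.96 CPM. Over the 4 libraries the mean was 0.629 ± 0.0827 CPM in the members and 4.09 ± 0.411 CPM in the acetylated regions (SD, n = 4 each), a ratio of 0.154 that the rule itself produces.

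H3K4me3 at the members was modest as well. The median count of a member was 9 and 13 in the WT libraries and 12 and 9 in the CSE-KO libraries. On the CPM scale the WT medians were 22.7 and 23.1 and the CSE-KO medians 21.3 and 20.7, so the WT libraries lay slightly above the CSE-KO libraries and the 2 genotypes did not overlap. In the acetylated H3K4me3 regions the WT medians were 32.8 and 30.2 CPM and the CSE-KO medians 37.3 and 34.5 CPM, where CSE-KO lay above WT. The mean level was 25.4 ± 1.08 CPM in the members and 45.4 ± 1.77 CPM in the acetylated regions (SD, n = 4 each), which is 0.558 of the latter. The drop in H3K27ac between the sets was larger than that in H3K4me3. A member had 40.3 times as high a mean level of H3K4me3 as of H3K27ac, and an acetylated region 11.1 times. The sets were split by H3K27ac count with the same H3K4me3 floor, so a larger drop in H3K27ac is built into this comparison. Antibodies differ in yield, so these ratios compare the sets and not the marks.

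**Figure D2:**
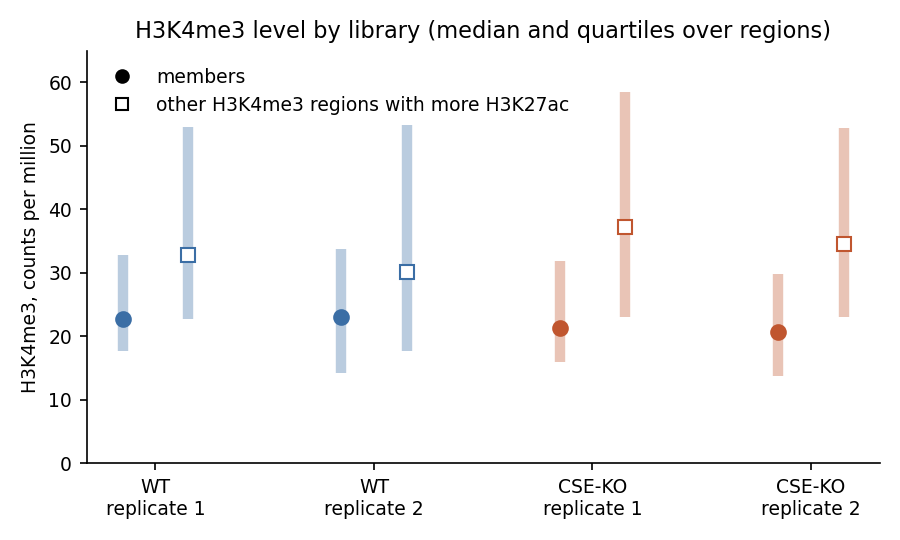
H3K4me3 level in CPM (vertical axis) in each H3K4me3 library (horizontal axis), with the median over regions as a symbol and the quartiles as a bar; filled circles are the 1159 members and open squares the 8353 acetylated H3K4me3 regions. The members' medians lie between 20.7 and 23.1 CPM, below those of the acetylated regions in all 4 libraries.

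Averaged over the 4 libraries, the members ranged from 10.9 to 103.9 CPM, with a median of 22.9 and quartiles of 17.9 and 29.4. Only 38 members lay above 50 CPM, whereas 2287 of the acetylated regions did. Strong H3K4me3 was thus rare among the members. The 103 regions with little H3K27ac that the H3K23ac limit removed are not counted here.

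The member with the highest mean level was peak6_4397, listed for WT H3K4me3 replicate 2. Its H3K4me3 was 32 and 97 counts for the WT libraries and 62 and 23 counts for the CSE-KO libraries, equal to 80.7, 172, 110 and 52.9 CPM. The 2 genotypes overlapped. Its H3K27ac counts summed to 6, and of its 27 H3K23ac counts 24 came from CSE-KO replicate 2. Next came peak7_32922, from the list of CSE-KO H3K23ac replicate 1, whose H3K4me3 was 40 and 22 counts for WT and 57 and 58 counts for CSE-KO. That is 100.9 and 39 CPM in WT and 101.1 and 133 CPM in CSE-KO. The replicate 1 libraries of the 2 genotypes were thus level, within the worth of 1 count. It also held 71 and 13 H3K23ac counts in CSE-KO against 0 and 1 in WT. The member peak2_67656, from the WT H3K23ac replicate 2 list, gave WT counts of 32 and 68 and CSE-KO counts of 56 and 28 for H3K4me3, equal to 80.7, 120.7, 99.3 and 64.4 CPM, again with overlap. All 3 reached H3K4me3 levels that most acetylated regions did not, with 6 or 7 H3K27ac counts.

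The limits of the rule separated regions with nearly the same counts. Just inside the H3K4me3 limit lay 343 members whose lowest count was 5, such as a region with WT counts of 5 and 6 and CSE-KO counts of 8 and 9, and just outside lay 547 regions whose lowest count was 4, such as one with WT counts of 4 and 6 and CSE-KO counts of 7 and 9. At the H3K27ac limit, 232 members had 7 counts and 243 otherwise fitting regions had 8. The first of each in the table had H3K4me3 counts of 6, 11, 9 and 15 inside and 13, 10, 8 and 9 outside, with the WT libraries first. At the H3K23ac limit, 211 members had 5 or more counts in 2 libraries, and 85 otherwise fitting regions had them in 3. The demand for a 0 kept 46 members that had a single 0 and left out 4 regions without one, such as a region whose H3K4me3 was 9 and 7 counts for WT and 7 and 9 counts for CSE-KO.

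Replicate agreement was judged by how well the 4 H3K4me3 libraries ranked and sized the members. Between replicates of a genotype, the log2 CPM values of the 1159 members had Pearson's r of 0.324 in WT and 0.391 in CSE-KO, with Spearman's rho of 0.299 and 0.351. The 4 pairs of libraries from different genotypes gave r from 0.351 to 0.435, so replicates were no more alike than libraries of different genotypes. In the acetylated regions r was 0.644 and 0.73 between replicates. Regions are not independent of each other, and the members also span a narrower range of levels than the acetylated regions, a difference whose part in r was not tested. In size, 74.6% of the members were within 2-fold of each other in the WT replicates and 81.1% in the CSE-KO replicates, close to the 75% and 83.5% of the acetylated regions.

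The spread between libraries was larger than counting noise in every pair. The squared difference between 2 libraries, divided by that of Poisson counting at the library totals, averaged 2.1 for the WT replicates and 1.53 for the CSE-KO replicates over the members, where 1 is counting noise alone. The lowest ratio, 1.26, was found between WT replicate 1 and CSE-KO replicate 2, and the 3 pairs with WT replicate 2 gave 2 to 2.1. The acetylated regions gave 3.06 and 2.1 for the replicates. The floor of 5 counts trims low values in both sets, and its effect on these ratios was not tested. Per member, the highest of the 4 libraries was a median of 2.19-fold above the lowest. It was under 2-fold at 473 members and over 4-fold at 61, with 7.11-fold as the extreme.

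Where the members were listed shaped their levels. The number that opens a region name was read as the number of the library in whose list the region stands. By that reading 602 members (51.9%) came from the 4 H3K4me3 lists, 556 (48%) from the 4 H3K23ac lists and 1 from an H3K27ac list, the WT replicate 2 list. Of the acetylated regions, 30.8% came from H3K4me3 lists, 64.6% from H3K23ac lists and only 4.54% from H3K27ac lists. The H3K27ac lists held only 380 of the 9619 regions with H3K4me3, members or not. Their 1 member had 0 counts in WT H3K27ac replicate 2, the library of its list. The part of the rule in the small number of members there was not tested. Among the 9619 regions with H3K4me3, members made up 15.8% to 20.2% of those in each H3K4me3 list and 8.61% to 9.71% of those in each H3K23ac list.

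Each H3K4me3 library was highest in its own list. In the WT replicate 1 list (86 members) that library had a median of 35.3 CPM and the other 3 had 19.5 CPM. In the WT replicate 2 list (246 members) it had 28.4 CPM against 20.7 to 22.7. The CSE-KO replicate 1 list (163 members) gave 26.6 CPM against 17.8 to 20.2, and the CSE-KO replicate 2 list (107 members) 27.6 CPM against 19.5 to 22.7. In the H3K23ac lists, which no H3K4me3 library had named, the 4 medians lay between 20.7 and 23.1 CPM. Those 556 members are therefore the ones whose H3K4me3 values carry no such lead.

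**Figure D3:**
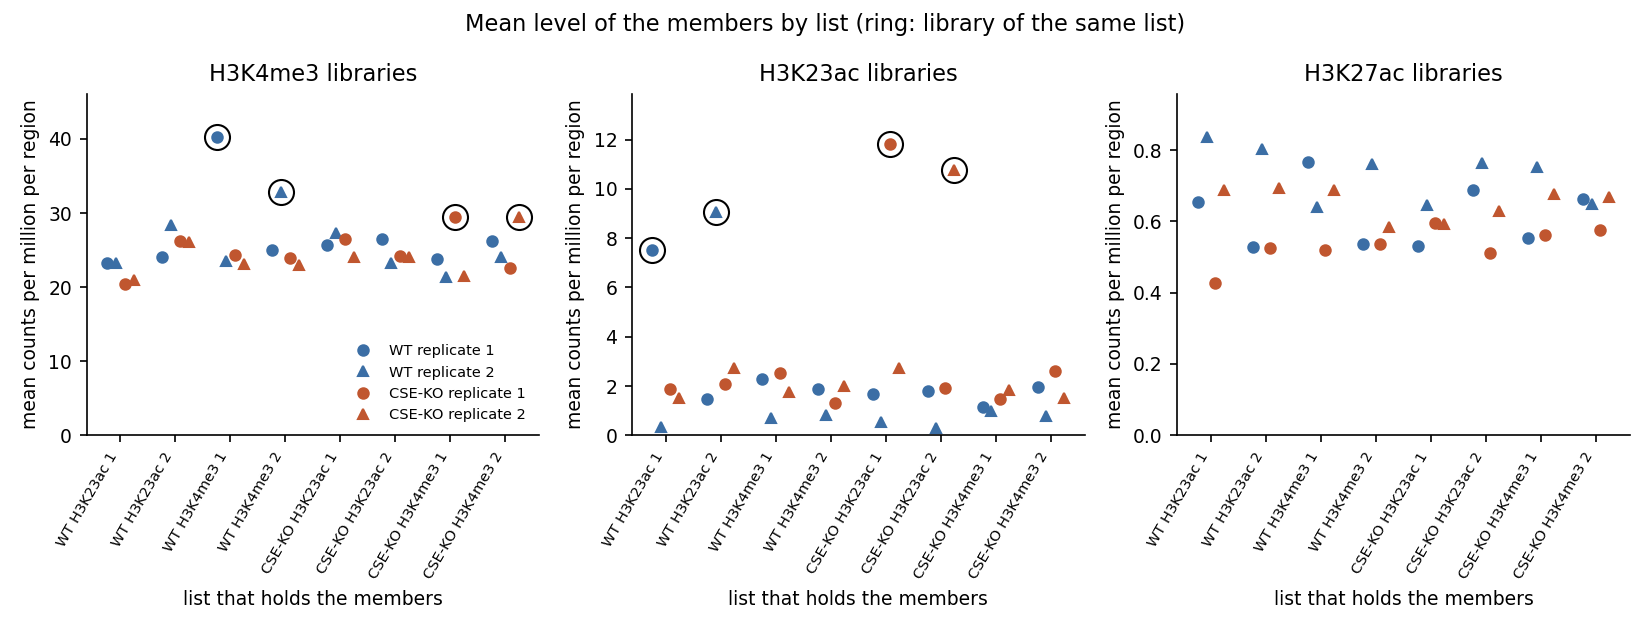
Mean level per member in CPM (vertical axes, from 0) by the list that holds the members (horizontal axes), for the libraries of H3K4me3, H3K23ac and H3K27ac; blue is WT, orange CSE-KO, circles replicate 1, triangles replicate 2, and a ring marks the library of the same list. Ringed H3K4me3 and H3K23ac libraries stand highest in their own list, and H3K27ac stays below 0.9 CPM in every list; the H3K27ac list with 1 member is left out.

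Within the lists the members stood in every stretch of running numbers. With each list cut by running number into 10 equal stretches, a stretch held 91 to 153 members over all lists. Another member stood in the row before or after for 24 members (2.07%), and a member stood beside 1.5% of the acetylated regions. Members are 1159 of 1192075 regions, and whether they stood closer together than scattered regions would was not tested. Running numbers may follow genome order, which the files do not state, so distances are unknown.

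H3K23ac counts were found at most members, in differing numbers of libraries. At least 1 count was found in 1 library at 372 members, in 2 at 362, in 3 at 168 and in 4 at 40. A limit of 5 counts, which the rule allows in at most 2 libraries, gave fewer. Of the 1159 members, 476 (41.1%) had fewer than 5 counts in every H3K23ac library, 472 (40.7%) had 5 or more in 1 library and 211 (18.2%) in 2. No H3K23ac count at all was found at 217 members (18.7%), which allows up to 0.442 CPM (3 counts in the pooled libraries). The rule removes regions with 3 or 4 such libraries, but 1163 of the 1266 regions with little H3K27ac (91.9%) met this limit on their own. Of the acetylated regions, 32.4% had 3 or 4 such libraries and 14.7% had 0.

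By library, 5 or more H3K23ac counts were found at 236 members in WT replicate 1 (20.4%), 96 in WT replicate 2 (8.28%), 274 in CSE-KO replicate 1 (23.6%) and 288 in CSE-KO replicate 2 (24.8%). WT replicate 2 stood low although its 1848702 counts made it the second deepest of the 4. In the acetylated regions the shares were 52.5%, 27.8%, 51.3% and 56.7%, with the same library lowest. The list again mattered: of the 556 members in H3K23ac lists, 297 (53.4%) had 5 or more counts in the library of their list and 220 (39.6%) in another H3K23ac library. Among the 602 members of H3K4me3 lists, 324 (53.8%) had fewer than 5 counts in every H3K23ac library.

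Single libraries dominated the H3K23ac counts. Of the 396 members with 20 or more such counts in all, 173 (43.7%) had over 90% of them in 1 library. The rule favours this, as it allows 5 or more H3K23ac counts in at most 2 libraries. The highest sum belonged to peak2_34864, where all 138 H3K23ac counts came from WT replicate 2, the library of its list. For H3K4me3 it had WT counts of 16 and 21 and CSE-KO counts of 19 and 11, where the rule asked for 5 or more in each library. The next, peak7_52280, had CSE-KO counts of 49 and 74 and WT counts of 0 and 0 for H3K23ac. For H3K4me3 its WT counts were 17 and 46 and its CSE-KO counts 26 and 14. At this region H3K23ac stood in both CSE-KO libraries and in neither WT library, while its H3K4me3 overlapped between genotypes.

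A pattern like that of peak7_52280, with 5 or more H3K23ac counts in both CSE-KO libraries and in neither WT library, was found at 65 members (5.61%), and the opposite pattern at 19 (1.64%). In the acetylated regions the shares were 7% and 1.9%. In the members of H3K4me3 lists alone the numbers were 16 and 11. The low WT replicate 2 library and the H3K23ac lists move with these counts, and their part was not tested. H3K23ac replicates also differed most. Their chi-square per region, over the whole table, was 28.6 (WT) and 25.2 (CSE-KO), against 2.05 to 4.05 for the other marks. Of the H3K23ac counts of a library, 0.212% ± 0.0382 (WT) and 0.392% ± 0.0422 (CSE-KO) lay in members (SD, n = 2 each). The acetylated regions also held more in CSE-KO, at 6.715% ± 0.0622 (WT) and 10.19% ± 1.503 (CSE-KO), so this was not particular to the members. Among the counts outside the library's own list the members' WT shares were 0.978% and 1.02% and their CSE-KO shares 1.21% and 1.06%, so CSE-KO stayed above WT by a smaller margin. The acetylated regions held 31.07% (WT) and 31.9% (CSE-KO) of those counts on average, with overlap between genotypes. The members' difference was not tested across libraries, since the rule used these counts and 2 against 2 allows no two-sided exact p below 0.33.

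Among the members, H3K4me3 levels varied little with H3K23ac. Members with 0, 1 and 2 libraries at 5 or more H3K23ac counts had median H3K4me3 levels of 21.6, 23.6 and 24.1 CPM and mean H3K27ac sums of 4.52, 4.79 and 5.1 counts. The order ran from fewest to most in both, with quartiles that overlapped widely, from 16.9 to 28.4 CPM for the first and 19 to 34 CPM for the last. Regions with more counts in 1 mark tended to have slightly more in the others.

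Loss of CSE was compared with WT for H3K4me3 in an edgeR quasi-likelihood test of 21348 regions, with library totals as size, and all 1159 members entered it. No member passed an adjusted p of 0.05, with 0 called of 1159 members and 0% called of all tested regions. At an unadjusted p under 0.05 there were 3 members higher and 6 lower in CSE-KO, or 0.777% in all. Of the tested regions 3.25% were higher and 1.03% lower, or 4.27% in all. The share in the acetylated H3K4me3 regions was 2.62% in all. The lowest unadjusted p of a member was 0.0227. DESeq2 likewise called 0 members, and 4 of the 21348 tested regions. Its unadjusted p was under 0.05 at 7 members and at 617 of all tested regions. The standard error of a member's log2 fold change had a median of 0.73, and a 2-fold change is 1 on that scale.

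The fold changes of the members centred slightly below 0. Their median log2 fold change, CSE-KO over WT, was -0.06, with quartiles of -0.47 and 0.28, and 632 members (54.5%) were lower and 527 higher. For 92.8% of members the fitted change was under 2-fold, against 92.1% of the acetylated regions and 76.5% of all tested regions. Members and acetylated regions share the floor of 5 counts in each H3K4me3 library, whose effect on these shares was not tested. Over all tested regions the median was 0.15 and 41.7% were lower, and over the acetylated H3K4me3 regions the median was 0.08 and 44.7% were lower. The scaling sets where 0 lies: with TMM factors in place of totals the median of all tested regions moved from 0.15 to 0.01 and that of the members to -0.22. Relative to the acetylated regions the members' median was lower by a like amount under both, at -0.14 with totals and -0.15 with TMM factors. Another scaling shifts all regions by nearly the same amount, so this difference could hardly change and its stability is no check of the gap. Leaving out a library gave differences from -0.10, without WT replicate 2, to -0.20, without WT replicate 1. Without WT replicate 1 the members' own median was 0.01, on the other side of 0.

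Counting the libraries instead of fitted values gave the same order. Both CSE-KO libraries lay above both WT libraries at 137 members (11.8%), against 21.5% of all tested regions, and below both at 210 members (18.1%), against 12.8%. In the acetylated regions the shares were 20.4% above and 13.1% below. H3K4me3 counts in the members made up 3.04% and 3.04% of the WT libraries and 2.9% and 2.78% of the CSE-KO libraries, with a Wilson 95% interval of 2.99% to 3.09% for the shallowest library. The CSE-KO libraries were lower by more than the spread between replicates, at 0.935 of the WT mean. For every 100 counts in acetylated regions, a library held 8.05 and 8.28 counts in members for WT and 7.24 and 7.45 for CSE-KO. This ratio does not depend on the library totals, and WT lay above CSE-KO in it as well. Which regions are members does depend on depth, since the rule used raw counts, and the effect of that on the ratio was not tested. With 2 against 2 libraries no two-sided exact permutation test reaches a p below 0.33, and this ratio was not tested in another way.

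The fold changes followed the lists. The median log2 fold change was -0.32 for the 332 members listed for a WT H3K4me3 library, of which 237 were lower in CSE-KO. It was 0.12 for the 270 members listed for a CSE-KO H3K4me3 library (112 lower) and -0.02 for the 556 listed for H3K23ac (283 lower). The acetylated regions of the same lists had medians of -0.29, 0.35 and 0.09. More members stood in WT than in CSE-KO H3K4me3 lists, and its part in the members' negative median was not tested beyond these values. In the H3K23ac lists alone, which favour no H3K4me3 library, the members' median still lay below that of the acetylated regions. None of the 556 was called by edgeR, and 2 (0.36%) had an unadjusted p under 0.05. Of the 5398 acetylated regions of those lists 0 were called, and 129 (2.39%) had such a p.

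**Figure D4:**
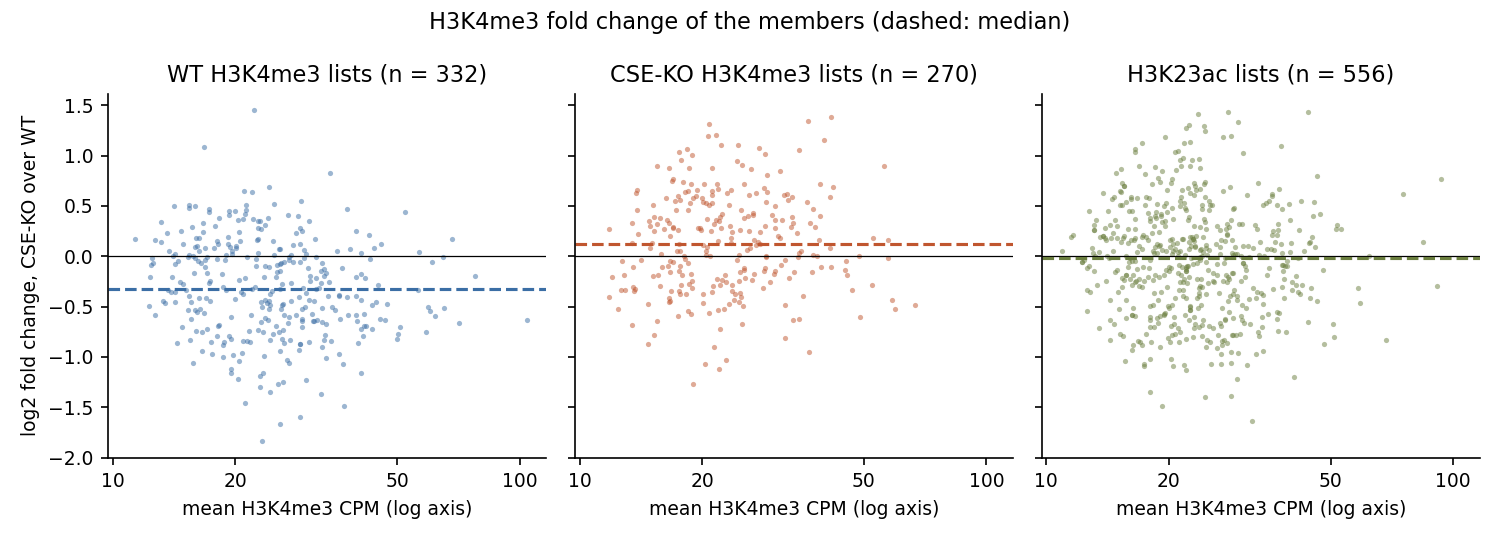
H3K4me3 log2 fold change, CSE-KO over WT (vertical axis), against mean H3K4me3 level (horizontal log axis, CPM) for the members of the WT H3K4me3 lists, the CSE-KO H3K4me3 lists and the H3K23ac lists, 1 point per member. The dashed medians lie at -0.32, 0.12 and -0.02, and none of the points passed the adjusted threshold.

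The gap between members and acetylated regions was seen at middle levels and was small at low levels. Below a mean H3K4me3 level of 15 CPM the median log2 fold changes were -0.02 in 106 members and 0.03 in 229 acetylated regions. At 15 to 20 CPM they were -0.005 in 302 members and 0.02 in 982 acetylated regions. At 20 to 30 CPM they were -0.07 in 473 members and 0.13 in 2224 acetylated regions, and at 30 to 50 CPM -0.14 in 240 and 0.12 in 2631. Above 50 CPM only 38 members were left, with a median of -0.31 against 0.00. Restricted to the H3K23ac lists, the 30 to 50 CPM medians were -0.09 in 110 members and 0.15 in 1670 acetylated regions. In those lists the medians at 20 to 30 CPM were -0.05 in 236 members and 0.14 in 1493 acetylated regions. Above 50 CPM they were 0.01 in 13 members and 0.05 in 1385 acetylated regions. At 15 to 20 CPM they were 0.02 in 146 members and 0.03 in 685 acetylated regions. Below 15 CPM the order was reversed, at 0.05 in 51 members and -0.01 in 165 acetylated regions.

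Across all 9619 regions with H3K4me3, the median fold change was higher where the H3K27ac count was higher. The median log2 fold change was -0.10 at 0 to 3 H3K27ac counts (303 regions), -0.07 at 4 to 7 (963 regions), 0.02 at 8 to 15 (2391 regions), 0.05 at 16 to 31 (3120 regions) and 0.13 both at 32 to 63 (2074 regions) and at 64 or more (768 regions). The members thus stand at the low end of a gradient. With the H3K27ac counts of the WT libraries alone, the medians went from -0.01 at 0 to 3 counts up to 0.15 at 16 to 31 counts and were 0.07 and 0.01 in the last bins, of 224 and 53 regions. With the CSE-KO libraries alone they went from -0.08 to 0.15. The H3K4me3 level went up along the same bins, from a median of 20.9 to 56.5 CPM, and CSE-KO replicate 1 gave 53.1% of all H3K27ac counts. The part of level and of that library in the gradient was not tested.

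**Figure D5:**
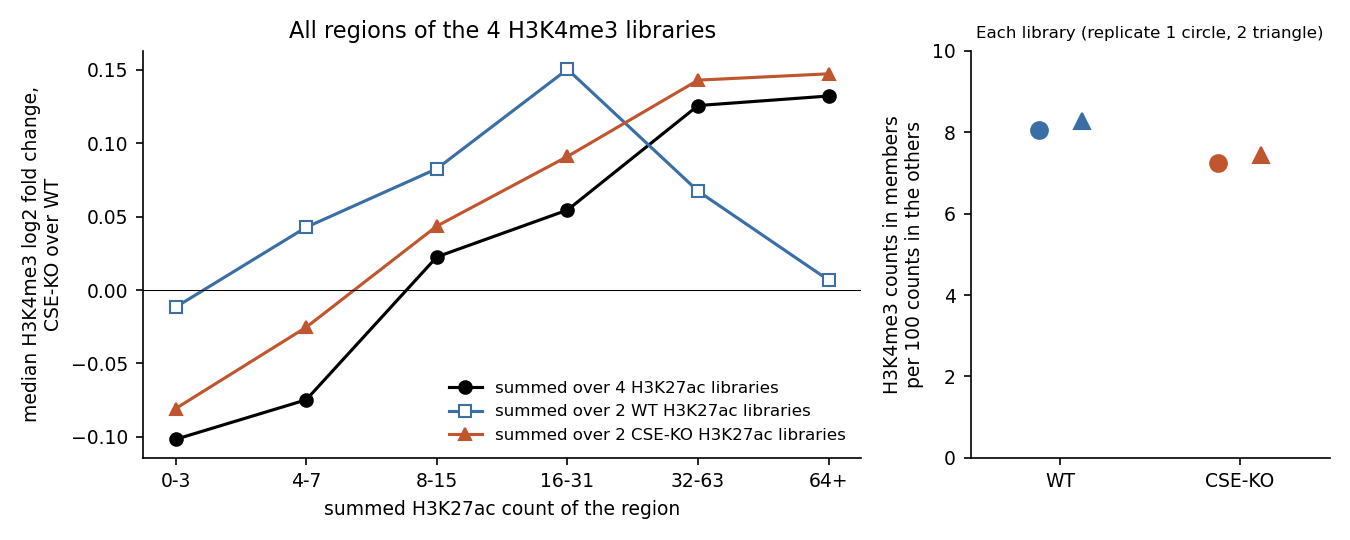
Left, median H3K4me3 log2 fold change, CSE-KO over WT (vertical axis), by summed H3K27ac count (horizontal axis) over the 9619 regions with H3K4me3, with the sum taken over 4 libraries (black), the 2 WT libraries (blue) or the 2 CSE-KO libraries (orange). Right, H3K4me3 counts in members per 100 counts in acetylated regions for each library, where WT (8.05 and 8.28) lies above CSE-KO (7.24 and 7.45).

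Single members with the largest fitted changes stayed within the noise of the test. Among members whose genotypes did not overlap, the largest positive change was that of peak6_11189, with WT counts of 6 and 5 and CSE-KO counts of 21 and 12. The means were 12 ± 4.43 CPM and 32.4 ± 6.83 CPM (SD, n = 2 each), and edgeR gave a log2 fold change of 1.45 (standard error 0.74) and an adjusted p of 1. It belongs to the list of WT H3K4me3 replicate 2, which was the library with the lowest level there. The largest negative change was that of peak6_46016, of the same list, with WT counts of 9 and 28 and CSE-KO counts of 5 and 5. The means were 36.2 ± 19.1 CPM and 10.2 ± 1.86 CPM (SD, n = 2 each), and the log2 fold change was -1.84 (standard error 0.76), again with an edgeR adjusted p of 1. The member with the lowest unadjusted p, peak2_28772, singled out after its values were seen, had WT counts of 8 and 15, CSE-KO counts of 25 and 37, a log2 fold change of 1.43 and an edgeR adjusted p of 1. It stands in the list of WT H3K23ac replicate 2, yet had 1 H3K23ac count in all.

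For H3K27ac the members gave no usable comparison of genotypes, as the rule holds their sum below 8. Their share of a library's H3K27ac counts was 0.0773% ± 0.011 for WT and 0.0684% ± 0.00866 for CSE-KO (SD, n = 2 each), with overlap between genotypes.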

How the data were processed

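The authors deposited raw whole-number counts per region for 12 ACT-seq libraries, and no other unit was used. The submitters' processing notes name ChIPseeker 1.38.0, Subread, R 4.3.3 and edgeR 4.0.16, and also the builds mm10 and GRCm39, without their roles. How peaks were called, how duplicates were handled and how reads over several regions were counted is not given in the sources used here. If such reads were dropped, regions called in several libraries would lose counts in all marks.

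CPM is the count divided by the library total, times 1000000. H3K4me3 was tested with edgeR 4.0.16 (glmQLFit, glmQLFTest, two-sided, R 4.3.3) on its 4 libraries, with library totals as size, filterByExpr (min.count 5) and p-values adjusted by Benjamini-Hochberg over all 21348 tested regions. The standard error is the fold change divided by the square root of F. The test was checked on simulated data. DESeq2 1.42.0 was the second tool, and Python 3.11.15, pandas 2.3.3 and scipy 1.17.1 made the summaries. In a chi-square comparison no pair of replicates was as close as counting noise alone. The chi-square per region was 28.6 (WT) and 25.2 (CSE-KO) for H3K23ac. It was 4.05 and 2.4 for H3K4me3 and 2.49 and 2.05 for H3K27ac. Wilson intervals and floors cover counting error only, since PCR copies are not independent molecules.

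Regions named are the 3 of highest mean H3K4me3, the 2 of highest H3K23ac sum, those nearest the limits, and, as none was called, the largest non-overlapping fold change in each direction. The members were chosen with earlier results of these data known. Alternatives were other scalings, filters and tools, all 12 libraries in 1 model, the replicate number as a block, and each library left out.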

Additional observations from a re-analysis of the deposited data

How the results depend on the processing

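No member was called for H3K4me3 by edgeR under any alternative run, nor by DESeq2. With no library left out, 0 to 14 members had an unadjusted p under 0.05 in these tests. The 0 came with all 12 libraries in 1 edgeR model, where 179 of 21348 tested regions had such a p. The 14 came in edgeR with DESeq2 size factors (886 of 21348 regions) and without a filter (1573 of 228865 regions). Over all regions the 0 calls became 16 without a filter, 4 with the DESeq2 test and 10 with the replicate block, and 0 to 348 with a library left out, most of them without WT replicate 1 (310 higher, 38 lower). A fit without a library assumes that the lone library varies like the other genotype. The replicate block changed no call of a member. Same-numbered libraries deviated from their genotype means with r = -0.0417 over 21348 regions, and the labels do not say that numbers mark pairs. The members' median log2 fold change was -0.22 with TMM factors, -0.23 with DESeq2 size factors, -0.018 in the H3K23ac lists alone (added after the data were seen), and -0.14 to 0.01 with a library left out. The reversed value, 0.0057, came without WT replicate 1. Counted outside each library's own list, the shares of counts in members were 3.43% and 2.997% for H3K4me3, 0.0885% and 0.097% for H3K27ac and 0.999% and 1.14% for H3K23ac, in WT and CSE-KO. With a library left out, peak6_4397 ranged from -1.265 to 0.0333 and peak2_67656 from -0.6512 to 0.0327, both highest without WT replicate 2 and lowest without CSE-KO replicate 1. The member of the H3K27ac list, peak4_31862, had 0.07 and went to -0.0566 with TMM and -0.0642 with DESeq2 size factors, and from -0.40 to 0.67 with a library left out (-0.0372 without CSE-KO replicate 2). The causes were not tested. The 4 H3K4me3 libraries hold 1958470 counts together, and depth was not varied on its own.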
